A study of Mus musculus with 6 samples.

Results

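The 44 genes described here, out of 19938 genes named on the arrays, belong to families of membrane carriers for sugars, nucleosides and water-soluble vitamins. They were taken by symbol: every single-symbol row of the deposited table whose symbol starts with Slc2a, Slc5a, Slc19a, Slc23a, Slc28a, Slc29a, Slc46a or Slc52a, with the row of the highest mean over all arrays kept for each gene. These families and the gene lists used below were chosen with earlier results of these data known. Their shares beside those of all genes therefore only describe. Of the 44 genes, Slc2a4rg-ps is by its symbol a pseudogene of a regulator of Slc2a4 and not a carrier. Some others carry other substrates, such as iodide (Slc5a5), choline (Slc5a7), monocarboxylates (Slc5a8 and Slc5a12) or urate (Slc2a9). The thiamine carrier Slc19a3 and the riboflavin carrier Slc52a2 were not analysed here.

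The arrays hold RNA of total epithelial cell preparations from the jejunum of mice, which lies between duodenum and ileum. Of the 6 arrays, 3 came from transgenic animals, with a doxycycline-driven Musashi transgene (TRE) together with R26-M2rtTA, and 3 from control animals with R26-M2rtTA alone. R26-M2rtTA is a doxycycline-dependent activator of transcription placed at the Rosa26 locus, which is active in most tissues, so the transgene was not limited to the epithelium by its driver. Both groups had drunk doxycycline for 24 h, and no array came from an animal without it. The transgene is TRE-Msi1 in the series text but TRE-MSI2 in the genotype label. The sources used here give no age, sex or strain.

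Signals are log2 values, so that a difference of 1 unit is a doubling, and differences are transgenic minus control. P-values are from limma, which fits a linear model to each gene and draws the variance of each toward that of all genes. They were adjusted over the 19938 genes by the Benjamini-Hochberg method. A gene is said to have risen or fallen where the adjusted p was under 0.05. The series text counts 3 animals in each group and the titles call the arrays biological replicates. The number of arrays limits the precision of every value.

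The labels were checked first on the Musashi genes, RNA-binding proteins known from stem and progenitor cells. Msi1 had log2 signals of 12.51, 12.68 and 12.62 on the transgenic arrays, against 6.95, 7.03 and 6.86 on the control arrays, a difference of 5.66 (SE 0.0894, limma adjusted p = 1.34e-05). Msi2 had 8.57, 8.08 and 8.01 on the transgenic arrays, against 8.59, 8.71 and 8.62 on the control arrays, so the Msi1 signal is the one that is high in the transgenic group. The Msi2 difference of -0.42 did not pass (adjusted p = 0.168), and Msi2 fell by 0.59 without transgenic replicate 1 (adjusted p = 0.0011). Transgenic replicate 1 stood apart from all other arrays: its correlation with them across the 19938 genes was 0.922 to 0.951, against 0.996 between transgenic replicates 2 and 3 and 0.995 to 0.996 between control arrays. Markers of enterocytes, which absorb nutrients, were low on it: the summed linear signal of the 12 markers listed, all measured, was 15633 on transgenic replicate 1 and 60561 to 62851 on the other transgenic arrays, against 66595 to 71307 on the controls. With all arrays 0 of the 12 passed limma's adjusted test (0 higher and 1 lower at an unadjusted p under 0.05), against 11.9% of all genes. The lowest signal of any of the 12 was 6.66, that of Mep1a on transgenic replicate 1. In RNA of a mixed preparation, fewer cells of a type and less RNA per cell cannot be told apart. Calls are therefore counted with and without that array. Without it the test sets 2 transgenic against 3 control arrays. All 8 epithelial markers were measured, with signals of 9.09 to 12.79 on the transgenic and 9.66 to 12.92 on the control arrays. Among them Epcam had 11.80, 12.08 and 12.01 on the transgenic arrays, against 12.04, 11.94 and 12.15 on the control arrays. Vil1 had 10.82, 11.90 and 11.87 on the transgenic arrays, against 12.17, 12.08 and 12.19 on the control arrays, and Krt18 had 11.79, 10.67 and 10.61 on the transgenic arrays, against 10.48, 10.73 and 10.27 on the control arrays. Of the 8, Cdh1 rose with all arrays (adjusted p = 0.0415), and Cdh1 rose while Vil1 and Cdx2 fell without replicate 1. These are 12.5% and 37.5% of the 8 markers, against 11.9% and 28.6% of all genes.

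As background, a jejunal absorptive cell takes up glucose and galactose from the gut lumen with sodium through Slc5a1 (SGLT1) and fructose through Slc2a5 (GLUT5), and lets them out to the blood through Slc2a2 (GLUT2). Nucleosides enter through the sodium-coupled Slc28a carriers and cross membranes in either direction through the Slc29a carriers. Water-soluble vitamins each have their own carriers: folate Slc46a1 and Slc19a1, thiamine Slc19a2, riboflavin Slc52a3, ascorbate Slc23a1 and Slc23a2, and biotin with pantothenate Slc5a6.

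With all 6 arrays, 7 of the 44 genes (15.9%) had an adjusted p under 0.05, a share near the 11.9% of all 19938 genes that did so. The 3 that rose in the transgenic arrays were the inositol carrier Slc5a3, the thiamine carrier Slc19a2 and Slc23a3, a relative of the ascorbate carriers with no settled substrate (all genes: 6.04% higher). The 4 that fell were the nucleoside carrier Slc28a1, the hexose carrier Slc2a7, the sodium-coupled sugar carrier relative Slc5a4a and the biotin and pantothenate carrier Slc5a6 (all genes: 5.84% lower). Without transgenic replicate 1, 21 of the 44 (47.7%) passed, 7 higher and 14 lower, against 28.6% of all genes (14.0% higher and 14.5% lower). The same 7 were among these 21, and the other 14 passed in none of the fits that left out any other single array.

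The groups did not overlap for 20 of the 44 genes (45.5%, against 34.2% of all genes). In 15 genes the transgenic arrays were the lower ones (34.1% of the 44, against 18.2% of all genes and 23.4% of other Slc genes). An exact two-sided permutation test gave p = 0.1 for each of the 20 without overlap, the smallest value that this design allows. The median difference over the 44 genes was -0.19 on the log2 scale, against -0.04 over all genes. Without transgenic replicate 1 it was -0.09, against -0.03 over all genes. No low-value filter was used, and all 44 genes were tested.

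**Figure D1:**
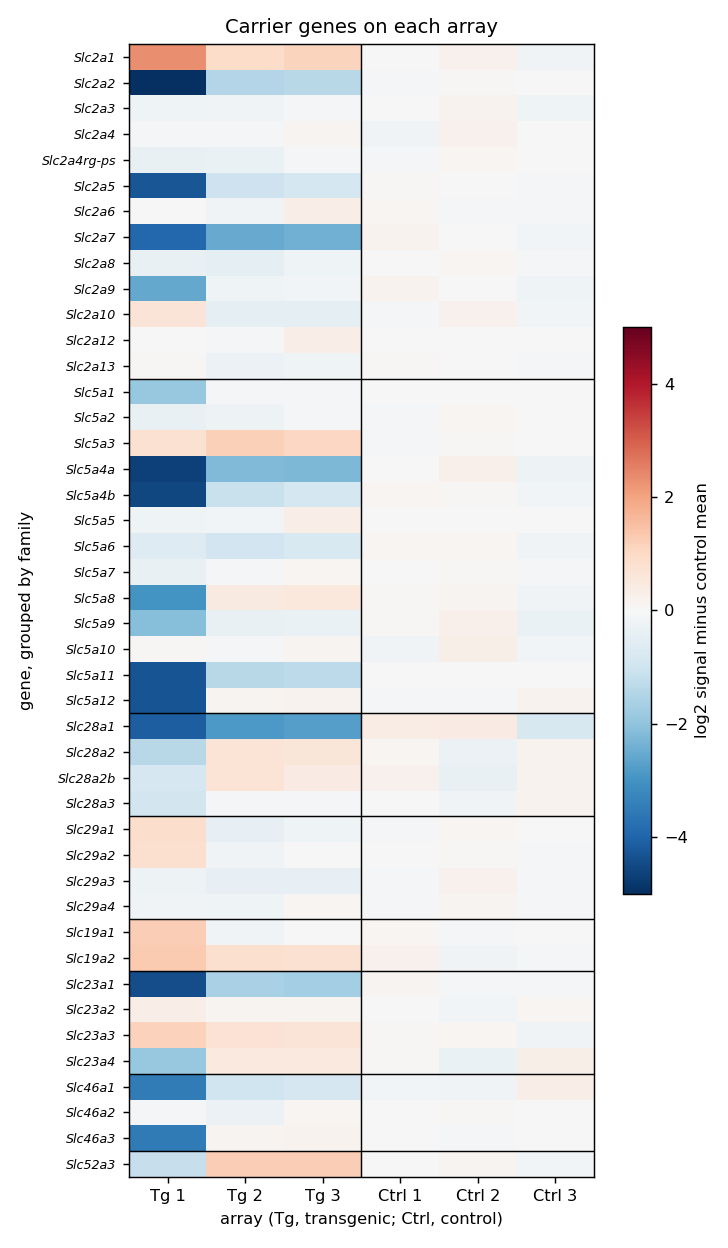
Log2 signal minus the control mean of each of the 44 genes (rows, grouped by family, with lines between families) on the 3 transgenic arrays (Tg, left) and the 3 control arrays (Ctrl, right), from blue (lower) to red (higher). Transgenic replicate 1 was more than 1 log2 unit below the control mean for 18 genes, and the mean of transgenic replicates 2 and 3 for 6.

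Sequence just before the transcription start was looked at for the largest falls and for the 3 rises, because these genes lay on both sides of the comparison while being of the same kind. The table of RefSeq promoter windows (GRCm38.p6) held 47 windows of 36 of the 44 genes, and the 250 bases before each start were read. Each sequence runs 5′ to 3′ on the strand of its gene, and each C followed by a G, the pair at which vertebrate DNA is methylated, is in capitals. The first set is of Slc2a7 (chr4:150148637-150148886, plus strand), Slc5a4a (chr10:76147201-76147450, plus strand) and Slc28a1 (chr7:81114549-81114798, plus strand), which fell.
Slc2a7: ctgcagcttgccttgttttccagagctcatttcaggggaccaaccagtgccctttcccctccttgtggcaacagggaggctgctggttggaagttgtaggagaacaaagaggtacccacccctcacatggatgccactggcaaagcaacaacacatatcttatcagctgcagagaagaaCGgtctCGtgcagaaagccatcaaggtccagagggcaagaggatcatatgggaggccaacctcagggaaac
Slc5a4a: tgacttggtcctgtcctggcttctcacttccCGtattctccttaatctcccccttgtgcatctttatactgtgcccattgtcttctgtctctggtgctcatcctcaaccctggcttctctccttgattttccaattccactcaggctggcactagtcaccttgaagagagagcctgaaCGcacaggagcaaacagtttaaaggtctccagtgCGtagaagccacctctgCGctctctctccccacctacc
Slc28a1: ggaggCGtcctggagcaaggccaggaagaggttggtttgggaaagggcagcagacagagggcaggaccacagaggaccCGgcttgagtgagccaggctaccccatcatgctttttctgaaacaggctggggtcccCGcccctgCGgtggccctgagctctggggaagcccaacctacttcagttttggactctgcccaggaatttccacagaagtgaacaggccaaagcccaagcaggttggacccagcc

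The second set is of Slc5a3 (chr16:92058072-92058321, plus strand), Slc19a2 (chr1:164248796-164249045, plus strand) and Slc23a3 (chr1:75133891-75134140, minus strand), which rose.
Slc5a3: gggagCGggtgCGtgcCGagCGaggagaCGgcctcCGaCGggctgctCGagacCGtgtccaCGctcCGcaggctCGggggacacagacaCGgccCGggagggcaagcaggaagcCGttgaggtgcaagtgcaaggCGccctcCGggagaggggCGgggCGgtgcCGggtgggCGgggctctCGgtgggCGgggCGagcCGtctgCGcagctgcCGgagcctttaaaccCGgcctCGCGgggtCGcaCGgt
Slc19a2: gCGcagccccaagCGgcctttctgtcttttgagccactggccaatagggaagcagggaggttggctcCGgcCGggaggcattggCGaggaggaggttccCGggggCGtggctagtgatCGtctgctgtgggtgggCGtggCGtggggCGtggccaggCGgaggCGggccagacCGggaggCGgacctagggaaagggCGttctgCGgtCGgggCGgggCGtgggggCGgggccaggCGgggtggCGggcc
Slc23a3: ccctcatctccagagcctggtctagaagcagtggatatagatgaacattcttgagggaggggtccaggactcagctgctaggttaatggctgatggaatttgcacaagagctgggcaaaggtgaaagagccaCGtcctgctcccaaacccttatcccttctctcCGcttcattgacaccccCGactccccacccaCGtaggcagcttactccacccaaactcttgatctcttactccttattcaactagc

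The stretches before Slc5a3 and Slc19a2 held 32 and 23 such pairs, with 74.8% and 73.2% G and C. That of Slc23a3 held 4 (52%), and those of Slc2a7, Slc5a4a and Slc28a1 held 2, 4 and 4 (53.2%, 51.6% and 60.4%). The fourth gene that fell, Slc5a6, has 2 windows with 63.6% and 70.8% and a median of 20 such pairs, so not all that fell held few. The median number of pairs was 6 over all windows and 7 over the 36 carriers. The median share of all 32851 windows was 52.4%, and that of the 36 carriers was 59.0%. Among the carriers called without transgenic replicate 1 it was 62.6% for the 6 higher and 58.0% for the 13 lower that have a window, and no test of these shares was made. The letters GTTAAT, the core of sites for the intestinal factor HNF1, were in the Slc23a3 stretch 169 bases before the start and in 3 of the 47 windows of these genes (6.38%), against 6.43% of all windows, both strands counted. The HNF4 letters CAAAGTCCA were in 0 of the 47 windows, against 0.384% of all. The letters AGATAAG, bound by factors of the Gata family, were in 0 of the 47 as well, against 2.74% of all. Only the exact letters named here were searched, and other forms of such sites were not counted. The E-box letters CACGTG were in windows of Slc5a1 and Slc29a1 (6.02% of all windows) and the REV-ERB and ROR letters TAGGTCA in that of Slc2a9 (2.23% of all windows).

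Facilitative sugar carriers of the Slc2a family let sugars pass down their gradient. Of the 13 genes of this family 1 fell and 0 rose in the limma fit of all arrays (4 lower and 1 higher at an unadjusted p under 0.05), and 5 fell and 1 rose without transgenic replicate 1. These are 7.69% and 46.2% of the family, against 11.9% and 28.6% of all genes. Slc2a7 (GLUT7, row 10510532), an intestinal hexose carrier, had 6.22, 7.64 and 7.75 on the transgenic arrays, against 10.33, 10.13 and 10.01 on the control arrays. All 3 transgenic arrays lay more than 2 log2 units below all controls. Its mean was 7.20 ± 0.86 in the transgenic and 10.16 ± 0.16 in the control group (SD, n = 3 each). It fell by 2.96 log2 units (SE 0.411, adjusted p = 0.00913) or 7.77-fold. Its call was lost without control replicate 1 (0.0548) or 2 (0.0531). Without transgenic replicate 1 the difference was -2.46 (adjusted p = 4.82e-06).

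Slc2a5, the fructose carrier, is the neighbour of Slc2a7 on chromosome 4 in the RefSeq gene table. It had 6.91, 10.15 and 10.30 on the transgenic arrays, against 11.25, 11.21 and 11.07 on the control arrays. All transgenic arrays were lower, replicate 1 by far the most. Its difference of -2.05 did not pass (SE 0.895, adjusted p = 0.226), and without transgenic replicate 1 it fell by 0.95 (SE 0.0951, adjusted p = 1.87e-04). Slc2a2, the carrier of the basal membrane, had 5.96, 9.84 and 9.90 on the transgenic arrays, against 11.20, 11.37 and 11.32 on the control arrays. Its difference of -2.73 did not pass with all arrays (95% interval -5.29 to -0.17, adjusted p = 0.172), and it fell by 1.43 without transgenic replicate 1 (95% interval -1.63 to -1.22, adjusted p = 2.00e-05). Such a lack of overlap, with the transgenic arrays lower, was found for 18.2% of all genes.

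Slc2a1 (GLUT1), the glucose carrier of most growing cells, had 11.27, 9.90 and 10.06 on the transgenic arrays, against 8.95, 9.17 and 8.77 on the control arrays, with no overlap. The difference of 1.45 (SE 0.369) had an adjusted p of 0.0578 and so did not pass. Without transgenic replicate 1 it rose by 1.01 (SE 0.124, adjusted p = 5.05e-04), a 2.02-fold rise.

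The urate carrier Slc2a9 had 6.60, 8.95 and 9.01 on the transgenic arrays, against 9.32, 9.20 and 8.95 on the control arrays. Its low value was on replicate 1 alone, and without that array the difference was -0.18 (95% interval -0.45 to 0.09). Slc2a10 had 7.43, 6.34 and 6.37 on the transgenic arrays, against 6.73, 7.01 and 6.67 on the control arrays, so replicate 1 lay above the controls and the other transgenic arrays below them. Without replicate 1 Slc2a10 fell by 0.45 (adjusted p = 0.0178), and Slc2a8, a carrier of internal membranes, by 0.33 (adjusted p = 0.0413). The remaining genes of this group passed in neither fit: the neuronal carrier Slc2a3, the insulin-regulated carrier Slc2a4, Slc2a6, Slc2a12, the proton-coupled inositol carrier Slc2a13 and Slc2a4rg-ps had differences from -0.27 to 0.07 with all arrays and from -0.25 to 0.11 without replicate 1.

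**Figure D2:**
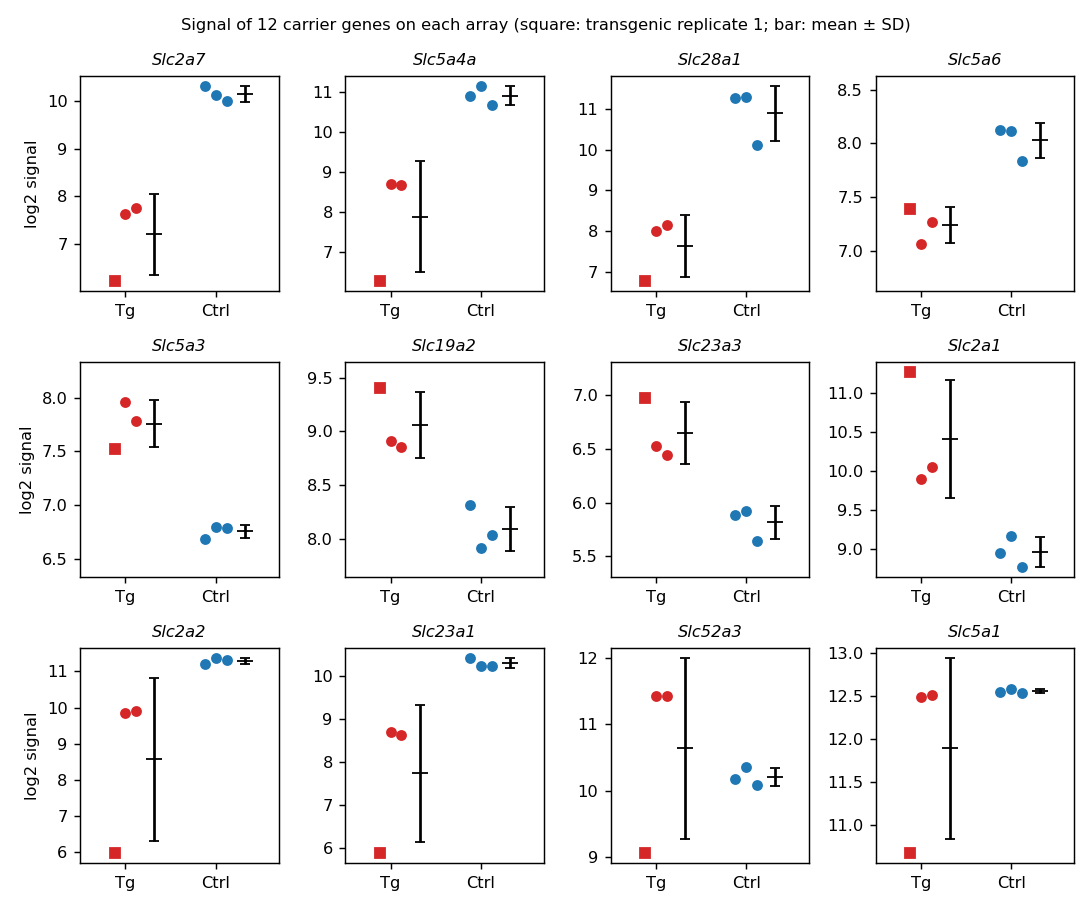
Log2 signal (y axis, own range in each panel) of 12 genes on the transgenic (Tg, red, left) and control (Ctrl, blue, right) arrays, with the mean ± SD of each group of 3 as a black bar. Transgenic replicate 1 is the square, and for Slc2a2, Slc23a1, Slc52a3 and Slc5a1 it lay far below the other transgenic arrays, while for Slc5a6 and Slc5a3 it lay within 1 log2 unit of them.

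Sodium-coupled carriers of the Slc5a family pull their substrate into the cell with sodium. Of 13 genes 2 fell and 1 rose with all arrays, and 4 fell and 2 rose without transgenic replicate 1 (23.1% and 46.2% of the family, against 11.9% and 28.6% of all genes). Slc5a4a (row 10364134) belongs to the SGLT3 type, of which the human form is known as a glucose sensor rather than a carrier. It had 6.26, 8.71 and 8.68 on the transgenic arrays, against 10.90, 11.17 and 10.68 on the control arrays, and all transgenic arrays lay at least 1 log2 unit below all controls. It fell by 3.04 (SE 0.667, adjusted p = 0.0369) or 8.20-fold, and by 2.22 or 4.67-fold without transgenic replicate 1 (adjusted p = 1.89e-05). The call was lost without any 1 of the other 5 arrays, with adjusted p from 0.0568 to 0.148.

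Slc5a4b, the neighbouring gene of the same type on chromosome 10, had 6.51, 9.96 and 10.20 on the transgenic arrays, against 11.17, 11.13 and 10.92 on the control arrays. The groups did not overlap, but the difference of -2.18 did not pass (adjusted p = 0.233). Without transgenic replicate 1 it fell by 0.99 (SE 0.113, adjusted p = 3.58e-04). Probes of close relatives such as these may share signal, and whether the 2 rows do was not tested.

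Slc5a1, the main sodium-coupled glucose carrier of the gut, had 10.67, 12.49 and 12.51 on the transgenic arrays, against 12.55, 12.59 and 12.54 on the control arrays. The groups did not overlap, although transgenic replicates 2 and 3 lay just below the controls. Its difference was -0.67 (SE 0.498, adjusted p = 0.499), and -0.06 without transgenic replicate 1, with a 95% interval of -0.24 to 0.13. In the same fit Slc2a5, Slc2a2 and Slc2a7 had differences of -0.95, -1.43 and -2.46, and none of their intervals reached that of Slc5a1.

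The inositol carriers differed in direction. Slc5a3 (SMIT1, row 10436945), which takes up myo-inositol and is known from cells under osmotic stress, had 7.53, 7.96 and 7.79 on the transgenic arrays, against 6.69, 6.80 and 6.79 on the control arrays. All transgenic arrays were higher, and its rise of 1.00 (SE 0.127, adjusted p = 0.0069) or 2.00-fold passed with each of the 6 arrays left out in turn (highest adjusted p = 0.0476). Slc5a11 (SMIT2), the second sodium-coupled inositol carrier, had 5.97, 8.91 and 8.99 on the transgenic arrays, against 10.32, 10.29 and 10.28 on the control arrays. Its difference of -2.34 did not pass (adjusted p = 0.13), and it fell by 1.35 without transgenic replicate 1 (SE 0.0808, adjusted p = 1.74e-05).

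Slc5a6 (row 10529052) brings biotin, pantothenate and lipoate into the cell. It had 7.39, 7.06 and 7.26 on the transgenic arrays, against 8.13, 8.12 and 7.84 on the control arrays. Here transgenic replicate 1 was the highest of the transgenic arrays and still below all controls. Slc5a6 fell by 0.79 (SE 0.128, adjusted p = 0.0151) or 1.73-fold, and by 0.86 without transgenic replicate 1. The call was lost without control replicate 1 (0.0806) or 2 (0.0773).

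The monocarboxylate carriers of this family, Slc5a8 (SMCT1) and Slc5a12 (SMCT2), which take up lactate and, in the case of Slc5a8, nicotinate, were low on replicate 1 only. Slc5a8 had 8.34, 11.78 and 11.85 on the transgenic arrays, against 11.37, 11.45 and 11.16 on the control arrays, and without replicate 1 it rose by 0.49 (SE 0.105, adjusted p = 0.00864). Slc5a12 had 7.77, 12.24 and 12.25 on the transgenic arrays, against 12.04, 11.98 and 12.26 on the control arrays. Its difference without replicate 1 was 0.15 (95% interval -0.09 to 0.39). The mannose carrier Slc5a9 (SGLT4) had 7.87, 9.62 and 9.66 on the transgenic arrays, against 10.06, 10.25 and 9.68 on the control arrays, and passed in neither fit (adjusted p = 0.322 and 0.133). Slc5a2, the kidney glucose carrier, the iodide carrier Slc5a5, the choline carrier Slc5a7 and Slc5a10 passed in neither fit, with differences of -0.23 to 0.04 with all arrays and of -0.17 to 0.09 without replicate 1.

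**Figure D3:**
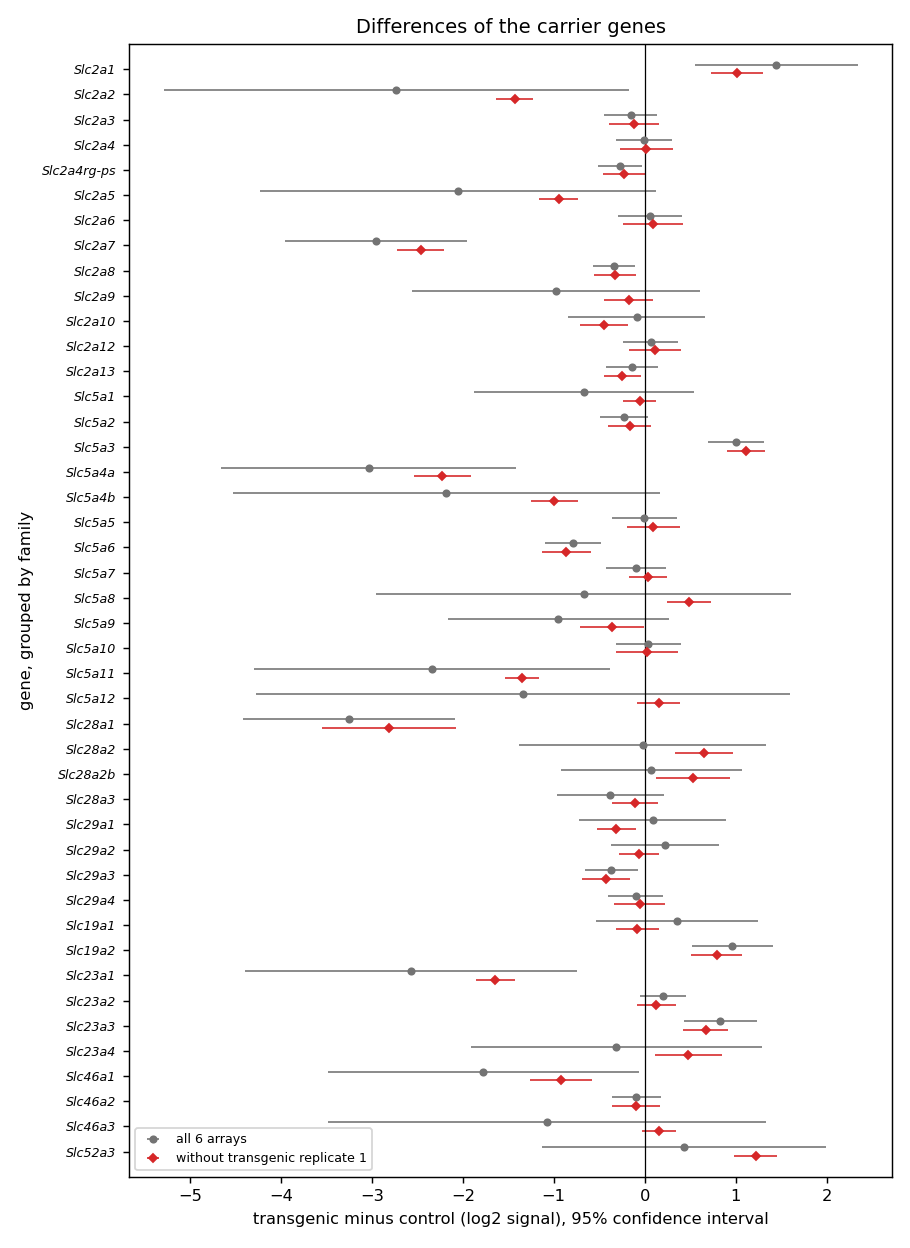
Difference, transgenic minus control, on the log2 scale (x axis) for each of the 44 genes (rows, in the order of families), with its 95% confidence interval from the limma fit, for all 6 arrays (grey circles) and without transgenic replicate 1 (red diamonds). The interval of Slc2a2 ran from -5.29 to -0.17 with all arrays and from -1.63 to -1.22 without that array.

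Concentrative nucleoside carriers gave the largest fall of all 44 genes. Slc28a1 (CNT1, row 10554502), which takes up pyrimidine nucleosides with sodium, had 6.77, 8.0 and 8.15 on the transgenic arrays, against 11.27, 11.30 and 10.11 on the control arrays. The nearest arrays of the groups, transgenic replicate 3 and control replicate 3, were almost 2 log2 units apart. Its mean was 7.64 ± 0.76 in the transgenic and 10.89 ± 0.68 in the control group (SD, n = 3 each). It fell by 3.25 (SE 0.479, adjusted p = 0.0108) or 9.51-fold. The call was lost without control replicate 1 (0.0604) or 2 (0.0605), and without transgenic replicate 1 it fell by 2.81 (adjusted p = 3.51e-04).

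Slc28a2 (CNT2), which prefers purine nucleosides, had 9.30, 11.37 and 11.26 on the transgenic arrays, against 10.77, 10.38 and 10.85 on the control arrays, low on replicate 1 and above all controls on replicates 2 and 3. Its difference was -0.02 with all arrays (adjusted p = 0.988), and without transgenic replicate 1 it rose by 0.65 (SE 0.139, adjusted p = 0.00835). The neighbouring gene Slc28a2b on chromosome 2, a near copy by its symbol, had 8.46, 9.97 and 9.71 on the transgenic arrays, against 9.51, 8.93 and 9.47 on the control arrays, and passed in neither fit (adjusted p = 0.0564 without replicate 1). Signal of these 2 rows may be shared by their probes, which was not tested. Slc28a3 (CNT3), which takes purines and pyrimidines, differed by -0.38 (adjusted p = 0.427), and by -0.10 without replicate 1 (adjusted p = 0.597).

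Of the 4 equilibrative nucleoside carriers 0 passed limma's adjusted test with all arrays (0 higher and 1 lower at an unadjusted p under 0.05). Of all genes 11.9% passed in that fit. The differences of the 4 carriers ran from -0.37 to 0.22. Without transgenic replicate 1, 2 of the 4 fell and 0 rose, while 28.6% of all genes passed. A group of 4 is too small to be set apart from these shares. Slc29a1 (ENT1), the main nucleoside carrier of the cell surface, had 8.29, 7.01 and 7.17 on the transgenic arrays, against 7.35, 7.49 and 7.38 on the control arrays. Replicate 1 lay above all controls and the other transgenic arrays below them, and without replicate 1 Slc29a1 fell by 0.31 (SE 0.093, adjusted p = 0.0367). Slc29a3 (ENT3), the nucleoside carrier of lysosomes, had 8.03, 7.85 and 7.85 on the transgenic arrays, against 8.16, 8.49 and 8.18 on the control arrays. Its difference of -0.37 did not pass (adjusted p = 0.115), and it fell by 0.43 without replicate 1 (adjusted p = 0.0234). Slc29a2 (ENT2) and the monoamine and adenosine carrier Slc29a4 passed in neither fit, with differences of 0.22 and -0.10 with all arrays and of -0.06 and -0.05 without replicate 1.

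Folate carriers split between the gut carrier and the general one. Slc46a1 (PCFT), which takes up dietary folate with protons in the upper small intestine, had 7.35, 9.83 and 9.97 on the transgenic arrays, against 10.69, 10.64 and 11.14 on the control arrays. All transgenic arrays were lower, the difference of -1.77 did not pass (adjusted p = 0.184), and without replicate 1 it fell by 0.92 (SE 0.15, adjusted p = 0.00212). Slc19a1 (RFC), the reduced folate carrier of most cells, had 10.18, 8.77 and 8.98 on the transgenic arrays, against 9.06, 8.86 and 8.94 on the control arrays. Only replicate 1 stood out, upward, and the 95% interval without it was -0.32 to 0.15. A second row of Slc19a1 had the same shape and a difference of 0.15 with all arrays, which did not pass. Slc46a3, a carrier of lysosomes, had 7.10, 10.76 and 10.80 on the transgenic arrays, against 10.66, 10.58 and 10.64 on the control arrays, low on replicate 1 alone, and passed in neither fit (difference 0.15 without it). Slc46a2 differed by -0.09, and by -0.10 without replicate 1, and passed in neither fit.

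Thiamine and riboflavin carriers were higher on the transgenic arrays, riboflavin not on replicate 1. Slc19a2 (THTR1, row 10351259), a high-affinity thiamine carrier, had 9.41, 8.91 and 8.86 on the transgenic arrays, against 8.32, 7.92 and 8.04 on the control arrays. It rose by 0.97 (SE 0.185, adjusted p = 0.0245) or 1.95-fold, and by 0.79 without transgenic replicate 1. The call was lost without any 1 control or transgenic replicate 2, with adjusted p up to 0.108. Slc52a3 (RFVT3), the riboflavin carrier of the apical gut membrane, had 9.06, 11.43 and 11.42 on the transgenic arrays, against 10.17, 10.36 and 10.09 on the control arrays. Replicate 1 was the lowest of all 6 arrays and the other transgenic arrays the highest. Its difference of 0.43 did not pass (adjusted p = 0.763), and without replicate 1 it rose by 1.22 (SE 0.101, adjusted p = 7.32e-05) or 2.33-fold.

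The ascorbate carriers and their relatives differed among themselves. Slc23a1 (SVCT1), the vitamin C carrier of absorptive epithelia, had 5.89, 8.71 and 8.63 on the transgenic arrays, against 10.44, 10.25 and 10.25 on the control arrays, with no overlap. The difference of -2.57 did not pass (SE 0.751, adjusted p = 0.0858), and without replicate 1 it fell by 1.64 (SE 0.0943, adjusted p = 1.37e-05) or 3.12-fold. Slc23a2 (SVCT2), the vitamin C carrier of most other cells, had 10.02, 9.79 and 9.81 on the transgenic arrays, against 9.71, 9.55 and 9.75 on the control arrays, and passed in neither fit (95% interval -0.05 to 0.45 with all arrays and -0.08 to 0.34 without replicate 1).

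Slc23a3 (row 10355717) had 6.98, 6.53 and 6.44 on the transgenic arrays, against 5.88, 5.93 and 5.64 on the control arrays. The control signals lay below the array medians over all rows, 6.27 to 6.34, so the gene was dim there. All transgenic arrays were higher. Slc23a3 rose by 0.83 (SE 0.166, adjusted p = 0.0278) or 1.78-fold, and by 0.67 without transgenic replicate 1. The call was lost without any 1 control or transgenic replicate 2, with adjusted p up to 0.108. Slc23a4, which in the rat is known to carry nucleobases, had 8.71, 11.07 and 11.08 on the transgenic arrays, against 10.64, 10.27 and 10.89 on the control arrays, and passed in neither fit (adjusted p = 0.0585 without replicate 1).

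Transgenic replicate 1 was further from the control mean than the mean of the other transgenic arrays for 36 of the 44 genes, against 13487 of the 19938 genes. It was more than 1 log2 unit below the control mean for 18 of the 44 (40.9%, against 7.17% of all genes), and the mean of replicates 2 and 3 was so for 6 (13.6%, against 2.40%). Those 6 were Slc2a2, Slc2a7, Slc5a4a, Slc5a11, Slc28a1 and Slc23a1. Of 320 other Slc genes, replicate 1 was that low for 61 and the mean of replicates 2 and 3 for 16. The 12 enterocyte markers had a median deviation of -2.45 on replicate 1.

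On transgenic replicates 2 and 3 the median deviation of the enterocyte markers from the control mean was -0.09, and of the 12 only Sis, Lct and Fabp1 fell, by 1.17, 0.26 and 0.48, without replicate 1. The part of enterocyte content in the low values of replicate 1 was not tested. With all arrays the markers that passed were Cdh1, which rose, and Olfm4, Ascl2, Muc2, Gcg, Chgb and Vim, which fell. They made up 12.5% of the epithelial and of the stroma and vessel markers, near the 11.9% of all genes that passed. The shares were 22.2% of the crypt and cycling, 16.7% of the goblet and 28.6% of the enteroendocrine markers. The 5 Paneth cell markers measured had a median deviation of 0.67 on replicate 1 and of -1.31 on the other transgenic arrays, and the 9 crypt and cycling markers 0.61 and -0.97. The 11 immune cell markers were at -2.24 and -0.62, with a summed linear signal of 1444 to 3117 on the transgenic arrays and 4448 to 5526 on the controls. The 8 stroma and vessel markers were at -0.16 and -0.09, the 6 goblet cell markers at -0.54 and -0.23, the 7 enteroendocrine markers at -1.01 and -0.30, and the 5 tuft cell markers at -0.15 and -0.32. The part of these cell types in the carrier values was not tested either.

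**Figure D4:**
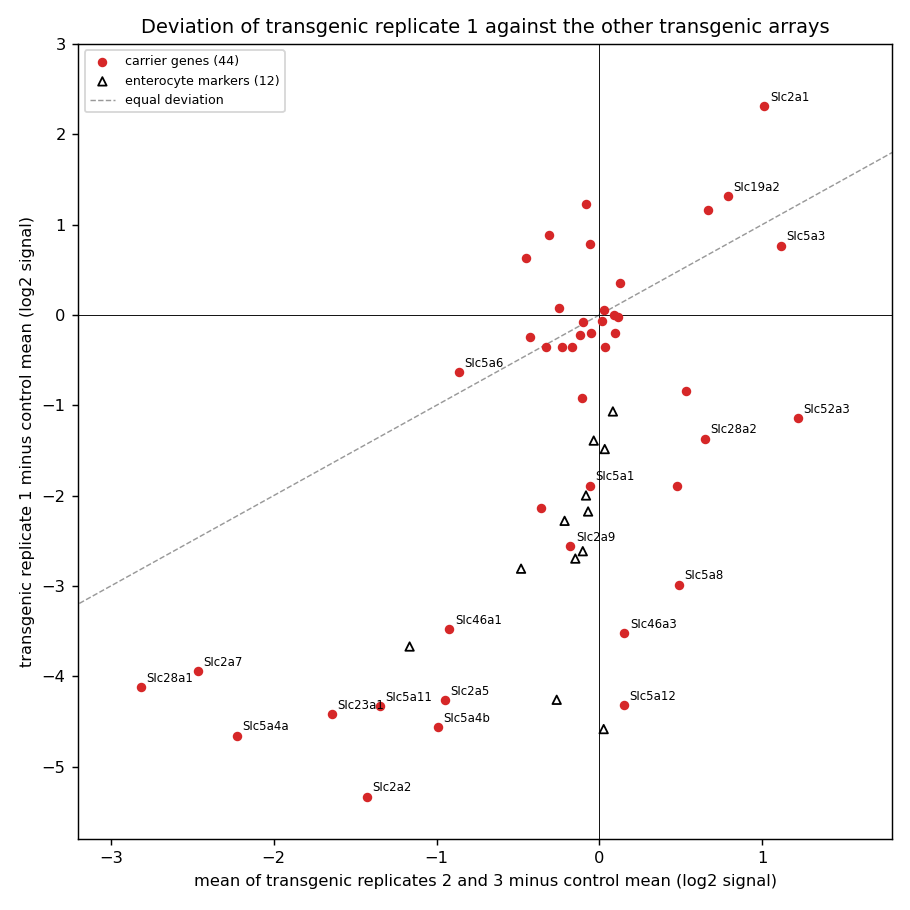
Deviation from the control mean (log2 signal) on transgenic replicate 1 (y axis) against the mean of transgenic replicates 2 and 3 (x axis), for the 44 genes (red points) and 12 enterocyte markers (open triangles); the dashed line marks equal deviation. Slc5a1, Slc5a12 and Slc46a3 lay low on the y axis and within 0.2 of zero on the x axis, as most enterocyte markers did, while Slc28a1, Slc2a7 and Slc5a4a lay more than 2 log2 units below zero on both.

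Genes that digest, trap and sense sugars were counted beside the sugar carriers, from a list of general knowledge chosen with earlier results of these data known. Of 25 measured (of 32 listed) 2 rose and 3 fell with all arrays, and 4 rose and 10 fell without transgenic replicate 1 (20.0% and 56.0% of the list, against 11.9% and 28.6% of all genes). Hk2, the hexokinase that traps glucose in growing cells, had 10.65, 9.96 and 9.91 on the transgenic arrays, against 7.49, 7.47 and 7.41 on the control arrays, and rose by 2.72 (SE 0.205, adjusted p = 0.00172), and by 2.48 without replicate 1. Mlxipl (ChREBP), the sugar-responsive transcription factor, had 7.34, 8.24 and 8.26 on the transgenic arrays, against 9.92, 9.85 and 9.97 on the control arrays, and fell by 1.97 (SE 0.254, adjusted p = 0.00731). Its difference without replicate 1 was -1.67. Both passed with each array left out in turn. Gcg, which encodes the glucagon and GLP-1 precursor, also fell by 1.54 (adjusted p = 0.00192; difference -1.50 without replicate 1) and passed in each of these fits.

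Prkaa1, a catalytic subunit of the energy sensor AMPK, rose by 0.75 (adjusted p = 0.0397; 0.57 without replicate 1) and kept the call without transgenic replicate 1 or 3 only (up to 0.145). Glyctk, the glycerate kinase of fructose breakdown, fell by 1.11 (adjusted p = 0.0463) and kept the call without transgenic replicate 1 only (up to 0.175), where it fell by 0.83. Khk, the fructokinase, had 6.0, 8.50 and 8.72 on the transgenic arrays, against 10.41, 10.40 and 10.26 on the control arrays. It did not pass (difference -2.61, adjusted p = 0.069), but fell by 1.74 without replicate 1 (adjusted p = 1.33e-05), where the sucrase gene Sis fell by 1.17.

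Of 26 measured genes (of 27 listed) of nucleotide digestion and nucleoside salvage, 1 rose and 2 fell with all arrays, and 3 rose and 12 fell without transgenic replicate 1. The share with all arrays, 11.5%, was near the 11.9% of all genes, and the share without replicate 1 was 57.7%, against 28.6%. Dck, the kinase that traps deoxycytidine, had 8.75, 8.95 and 8.74 on the transgenic arrays, against 7.33, 7.11 and 7.30 on the control arrays, and rose by 1.57 (SE 0.105, adjusted p = 0.00158), and by 1.60 without replicate 1. Tk1, the thymidine kinase of dividing cells, had 7.10, 6.80 and 7.03 on the transgenic arrays, against 8.03, 7.96 and 8.07 on the control arrays, and fell by 1.04 (SE 0.104, adjusted p = 0.00362). Its difference without replicate 1 was -1.10. Both passed with each array left out in turn. Entpd5, a nucleoside diphosphatase, fell by 1.17 (adjusted p = 0.0397) and kept the call without transgenic replicate 1 only (up to 0.155), where it fell by 0.88.

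Of 25 measured genes (of 31 listed) that handle water-soluble vitamins inside the cell, 0 rose and 3 fell in the limma fit of all arrays (2 higher and 5 lower at an unadjusted p under 0.05), and 3 rose and 7 fell without transgenic replicate 1. The share with all arrays, 12%, was near the 11.9% of all genes, and the share without replicate 1 was 40%, against 28.6%. Pdxk, which activates vitamin B6, had 8.17, 7.52 and 7.45 on the transgenic arrays, against 9.41, 9.40 and 9.32 on the control arrays, and fell by 1.66 (SE 0.2, adjusted p = 0.00604), with a difference of -1.89 without replicate 1. The folate and conjugate exporter Abcc3 had 7.73, 8.09 and 8.02 on the transgenic arrays, against 9.34, 9.15 and 9.14 on the control arrays, and fell by 1.27 (SE 0.123, adjusted p = 0.00343), with a difference of -1.16 without replicate 1. Both passed with each array left out in turn. Coasy, which completes coenzyme A from pantothenate, fell by 0.56 (adjusted p = 0.0491) and kept the call without transgenic replicate 1 only (up to 0.188), where it fell by 0.69. Pank1, the kinase of the first step from pantothenate to coenzyme A, did not pass with all arrays (difference -0.68, adjusted p = 0.177) and fell by 0.97 without replicate 1 (adjusted p = 6.52e-04). The other pantothenate kinases of the list, Pank2 (0.08, and 0.15 without replicate 1) and Pank3 (-0.25 and -0.31), passed in neither fit.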

How the data were processed

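RNA of 6 mouse samples was hybridised to Affymetrix Mouse Gene 1.0 ST arrays, with 250 ng of total RNA per array, per the labels' protocols. The deposited table holds log2 signals, made by the authors with RMA in Partek 6.5, per the submitters' processing notes. RMA corrects background, makes array distributions alike and summarises probes, so it sets no true zero and can compress large differences. Genes were named from the platform annotation: 21789 of 35399 rows had 1 symbol, 1621 several and 11989 none, which left 19938 genes. For a gene with more than 1 row the row of the highest mean was kept.

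Groups were compared with limma 3.58.1 (R 4.3.3, lmFit and eBayes) without covariates or a filter, adjusted by Benjamini-Hochberg. The script was tested on simulated data. The 15 alternatives were other normalizations, a filter, replicate blocks, variance models, row rules and leaving out each array. Values on every array are given for called carriers, for those called only without transgenic replicate 1 with a difference of at least 1, and for textbook gut carriers; values of some others, such as Slc2a10, Slc5a12 and Slc28a2b, were added after they were seen. The carriers and lists were chosen with earlier results of these data known.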

Additional observations from a re-analysis of the deposited data

How the results depend on the processing

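The 7 called carriers kept their direction under all 15 alternatives. The counts did not keep their size. Of the 44 carriers 4 were called with the title number as a replicate block, 21 with the description number as a replicate block and 19 with array weights, and 1 to 21 with each array left out in turn. The higher ones numbered 9 with the description block and 5 with array weights (1 to 7 with an array left out), and the lower ones 2 with the title block, 12 with the description block and 14 with array weights (0 to 14 with an array left out). Over all genes 733, 4019 and 5770 were called with the title block, the description block and array weights, and 683 to 5700 with an array left out. Of the pathway genes 7, 25 and 30 were called in the same order of settings, 7 when all rows were tested, and 7 to 39 with an array left out. Of the cell markers 2, 30 and 25 were called in that order, and 2 to 33 with an array left out. Each of these highest counts came without transgenic replicate 1. Without control replicate 1 or 2 no carrier was called lower by limma, while 7 and 6 of the 44 were lower at an unadjusted p under 0.05.

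The title block ended the calls of Slc23a3 (adjusted p = 0.0551), Slc5a4a (0.0588) and Slc5a6 (0.0596), testing all rows that of Slc5a4a (0.0553), and removing the dimmest 40% of genes added Slc2a1 (0.0433) and left out 6 of the 44. Deviations from the group mean correlated at -0.07, -0.17 and -0.12 between arrays of the same title number. Of the 6 arrays 0 correlated best with the array of its own number. Transgenic replicate 1 weighs heavily on the mean from which the transgenic deviations are taken. The check therefore cannot tell whether arrays of the same number share a litter, batch or day. The description numbers leave 1 residual degree of freedom, since transgenic replicate 1 and control replicate 1 each stand alone there. Neither of those arrays enters the difference of that fit. Slc2a7, Slc5a3 and Slc5a4a all had the same SE of 0.176 in it. The counts with the description block are therefore not comparable with those of the fit without a block. The carriers whose sign changed were not called with all arrays, and the cause was not tested.

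With quantile normalization the difference changed sign for Slc2a4 (0.030) and Slc5a5 (0.043). With equal array medians the difference changed sign for Slc2a4 (0.029), Slc5a5 (0.036) and Slc28a2 (0.015). With the description number as a replicate block the difference changed sign for Slc5a5 (0.087), Slc5a7 (0.018), Slc5a8 (0.51), Slc5a10 (-0.057), Slc5a12 (0.12), Slc28a2 (0.70), Slc29a1 (-0.34), Slc29a2 (-0.067), Slc19a1 (-0.029), Slc23a4 (0.50) and Slc46a3 (0.17). With array weights the difference changed sign for Slc2a4 (0.040), Slc2a6 (-0.070), Slc5a8 (0.31), Slc28a2 (0.53), Slc29a1 (-0.27), Slc29a2 (-0.059), Slc19a1 (-0.11) and Slc23a4 (0.33). With each array left out in turn the sign also changed for Slc2a4 (-0.10 to 0.097), Slc2a6 (-0.079 to 0.18), Slc2a10 (-0.45 to 0.098), Slc2a12 (-0.060 to 0.15), Slc5a5 (-0.16 to 0.095), Slc5a7 (-0.20 to 0.034), Slc5a8 (-1.27 to 0.49), Slc5a10 (-0.048 to 0.19), Slc5a12 (-2.09 to 0.15), Slc28a2 (-0.39 to 0.65), Slc28a2b (-0.22 to 0.53), Slc29a1 (-0.31 to 0.33), Slc29a2 (-0.060 to 0.41), Slc19a1 (-0.083 to 0.62), Slc23a4 (-0.71 to 0.48), Slc46a2 (-0.18 to 0.00066) and Slc46a3 (-1.70 to 0.15).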

Other observations

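Other carriers of the Slc families were counted with no further selection. Of 320 genes whose symbol starts with Slc and that are not among the 44, 22 rose and 19 fell with all arrays, and 60 rose and 66 fell without transgenic replicate 1. These are 12.8% and 39.4% of them, against 11.9% and 28.6% of all genes. Slc10a2, the bile acid carrier of the ileum, had log2 signals of 8.43, 10.06 and 9.95 on the transgenic arrays, against 5.80, 5.96 and 6.19 on the control arrays. It rose by 3.49 (limma adjusted p = 0.00677), and by 4.02 without transgenic replicate 1, and passed with each array left out in turn. Fabp6, the ileal bile acid binding protein, had 4.83, 5.73 and 5.46 on the transgenic arrays, against 4.82, 6.44 and 4.52 on the control arrays, and did not pass. Gata4, a transcription factor of the upper small intestine, had 9.69, 9.84 and 9.84 on the transgenic arrays, against 9.85, 9.89 and 9.85 on the control arrays. Olfm4, a crypt stem cell marker, had 8.61, 8.20 and 8.15 on the transgenic arrays, against 11.68, 11.50 and 11.89 on the control arrays, and passed with each array left out in turn. Of the 9 crypt and cycling markers measured, 2 fell and 0 rose with all arrays (22.2%, against 11.9% of all genes). The median deviation of the 9 was 0.61 on transgenic replicate 1 and -0.97 on the other transgenic arrays.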
